A study of Mus musculus with 6 samples.

Results

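HOX genes and their TALE partners were followed in sorted mouse bone marrow cells with and without the nuclear receptors Nr4a1 and Nr4a3. Members were the probe sets annotated to a single HOX gene of clusters A to D, or to a single gene of the MEIS, PBX or PKNOX families. This rule found 68 of 45037 probe sets, for 41 of the 18193 genes with a probe set of their own. They were 9 HOXA, 9 HOXB, 7 HOXC, 8 HOXD, 3 MEIS, 3 PBX and 2 PKNOX genes. Other genes of these families were not analysed here.

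HOX genes encode homeodomain transcription factors that lie in clusters ordered from an anterior to a posterior end. Blood stem and early progenitor cells are known to use genes of the A and B clusters, and Hoxa9 with Meis1 is a well-known driver pair in myeloid leukaemia. The TALE proteins of the MEIS, PBX and PKNOX families bind DNA together with HOX proteins and sharpen which sites these occupy, and MEIS and PKNOX proteins also hold PBX proteins in the nucleus.

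RNA was measured on 6 Affymetrix arrays, 3 of wild-type (WT) mice and 3 of Nr4a1 Nr4a3 double knockout (DKO) mice. Cells were sorted from marrow for lack of lineage markers and presence of Sca1, which is found on the surface of blood stem cells and their first progeny. The RNA on an array came from a pool of 10 to 20 animals, 2 to 3 weeks old, and the labels name no treatment. DKO animals were of a C57BL/6 and 129SvJ hybrid strain, bred from Nr4a3-/- and Nr4a1-/- mice, so the loss of both genes was not limited to blood cells. No strain is labelled for WT. The comparison asks which transcripts of these cells differ when both receptors are lost. Loss of either receptor alone was not measured, and an effect of strain cannot be told apart from that of the knockout.

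The deposited values were MAS5 signals, a linear brightness per probe set, scaled by the authors so that the trimmed mean of each array was 500. Medians per array lay between 91.6 and 122.5. Nr4a1 signals were 1110.5, 1269.4 and 816.3 in WT and 8.0, 22.4 and 33.8 in DKO. The 3 Nr4a3 probe sets were too dim to be tested. One had 40.4, 61.8 and 51.5 in WT and 20.9, 4.0 and 0.6 in DKO, without overlap, and another 128.7, 145.4 and 22.6 against 25.9, 6.9 and 24.6, with overlap. The third, the brightest of the 3 by mean log2 signal, had 63.7, 44.3 and 50.8 against 60.9, 59.4 and 21.2. The brightest probe set of Nr4a2, which the labels do not name as knocked out, was lower in DKO without overlap. Its signals were 2639.1, 1965.1 and 1378.5 in WT and 869.9, 417.4 and 715.7 in DKO (log2 difference -1.57, limma adjusted p = 0.0383). The other Nr4a2 probe sets overlapped and went both ways, from -1.37 to 0.73. Stem and early progenitor markers were present in every array, but the sort marker Ly6a was not analysed here. WT replicate 2 had the highest B lineage, neutrophil and erythroid marker levels. Among the WT arrays it was also highest for the mast cell, basophil and eosinophil list and the monocyte, macrophage and dendritic cell list. WT replicate 3 had the lowest neutrophil and erythroid levels. Relative to each gene's log2 mean, the WT levels were 0.035, 1.70 and -1.44 for neutrophils and 0.10, 1.33 and -1.37 for erythroid cells. Counts of members and of marker genes are also given without WT replicate 2, a setting chosen after seeing the data.

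The promoters of the 3 genes that passed the test below, and of Hoxb4, the tested HOXB gene with the largest difference, are printed to show the letters around their starts. The sequences are the 250 bases before the annotated start in RefSeq, build GRCm38.p6, written 5′ to 3′ on the strand of the gene. Capitals mark matches on either strand to any of 7 motifs.
Hoxa3, chr6:52213068-52213317, strand -: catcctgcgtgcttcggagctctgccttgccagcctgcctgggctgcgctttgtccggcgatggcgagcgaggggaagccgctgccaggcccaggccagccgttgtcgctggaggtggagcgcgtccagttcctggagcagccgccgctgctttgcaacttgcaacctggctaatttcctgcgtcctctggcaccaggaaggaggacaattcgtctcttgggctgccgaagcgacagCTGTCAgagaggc
Hoxa9, chr6:52227371-52227620, strand -: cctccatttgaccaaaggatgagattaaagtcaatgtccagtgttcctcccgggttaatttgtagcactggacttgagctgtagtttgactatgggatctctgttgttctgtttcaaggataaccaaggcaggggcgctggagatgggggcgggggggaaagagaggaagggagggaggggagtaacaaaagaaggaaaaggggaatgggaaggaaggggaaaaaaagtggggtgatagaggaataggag
Meis1, chr11:19018970-19019219, strand -: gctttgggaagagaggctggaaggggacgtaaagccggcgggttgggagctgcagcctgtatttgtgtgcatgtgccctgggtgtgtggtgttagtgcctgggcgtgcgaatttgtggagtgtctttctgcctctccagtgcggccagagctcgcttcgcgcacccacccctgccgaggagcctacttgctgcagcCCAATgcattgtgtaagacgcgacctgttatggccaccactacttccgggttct
Hoxb4, chr11:96318017-96318266, strand +: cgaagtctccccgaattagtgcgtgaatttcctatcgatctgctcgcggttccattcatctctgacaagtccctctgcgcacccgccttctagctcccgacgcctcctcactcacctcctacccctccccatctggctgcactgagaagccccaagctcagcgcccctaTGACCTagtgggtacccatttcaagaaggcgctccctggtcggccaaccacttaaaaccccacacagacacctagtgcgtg

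The motifs searched were the NR4A response element AAAGGTCA, its core AGGTCA (which lies inside it), the MEIS site TGACAG, the PBX-HOX site TGATNNAT, the E-box CACGTG, the CCAAT box and the TATA box TATAAA. RefSeq promoters were matched for 24 of the 41 genes, 26 sequences in all. The element AAAGGTCA occurred in 0 of the 26 member promoters and in 1.34% of 32851 promoters of the same length. Its core AGGTCA occurred in 5 of 26, those of Hoxb4, Hoxc4, Hoxd3, Hoxd8 and Hoxd10, and in 14.0% of all promoters. The CCAAT box was in 14 of 26 against 33.8% of all, and lay 54 to 50 bases before the start of Meis1. TGACAG was in 2 of 26, Hoxa2 and Hoxa3, against 15.9% of all, and lay 13 to 8 bases before the start of Hoxa3. TGATNNAT was in 3, CACGTG in 4 and TATAAA in 3 of 26, against 7.68%, 6.02% and 12.4% of all. The Hoxa9 window held a match to 0 of the motifs. A match describes these letters in this window and is no measure of binding.

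For testing, signals were put on the log2(signal + 16) scale, and probe sets among the dimmest 40% by mean over the arrays were left out. This kept 28 member probe sets of 14 genes. A gene is represented by its brightest probe set, differences are DKO minus WT with their standard error (SE, n = 3 arrays per group), and "fell" or "rose" means an adjusted p under 0.05 in limma over all 27022 tested probe sets. Of the 14 genes 3 fell, Hoxa3, Hoxa9 and Meis1, and 0 rose. The background was 0.633% of 11529 tested genes for falls and 1.08% for rises, and limma gave 6 of the 14 an unadjusted p under 0.05, against 16.3% of all tested genes. The difference was below 0 in 14 of 14 genes, against 50.8% of all tested genes. Without WT replicate 2, 13 of these genes were still tested, and 12 of them were below 0, against 52.2% of all; Hoxd8 was above 0, and Hoxc10 was too dim. In 7 of 14 every WT array lay above every DKO array, against 11.3% of all tested genes.

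The median difference was -0.69 over the 14 genes and -0.0078 over all tested genes. It was -1.02 for the 4 tested HOXA genes, -0.65 for the 3 HOXB genes and -0.46 for the 5 TALE genes. Both groups lay above the limit of the filter in 13 of the 14 genes; Pbx3 passed the filter through its WT signals. The other 27 genes were too dim to be tested, so these counts do not describe the HOX and TALE families as wholes. In sorted cells measured in bulk, fewer cells of a type and less RNA per cell cannot be told apart.

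**Figure D1:**
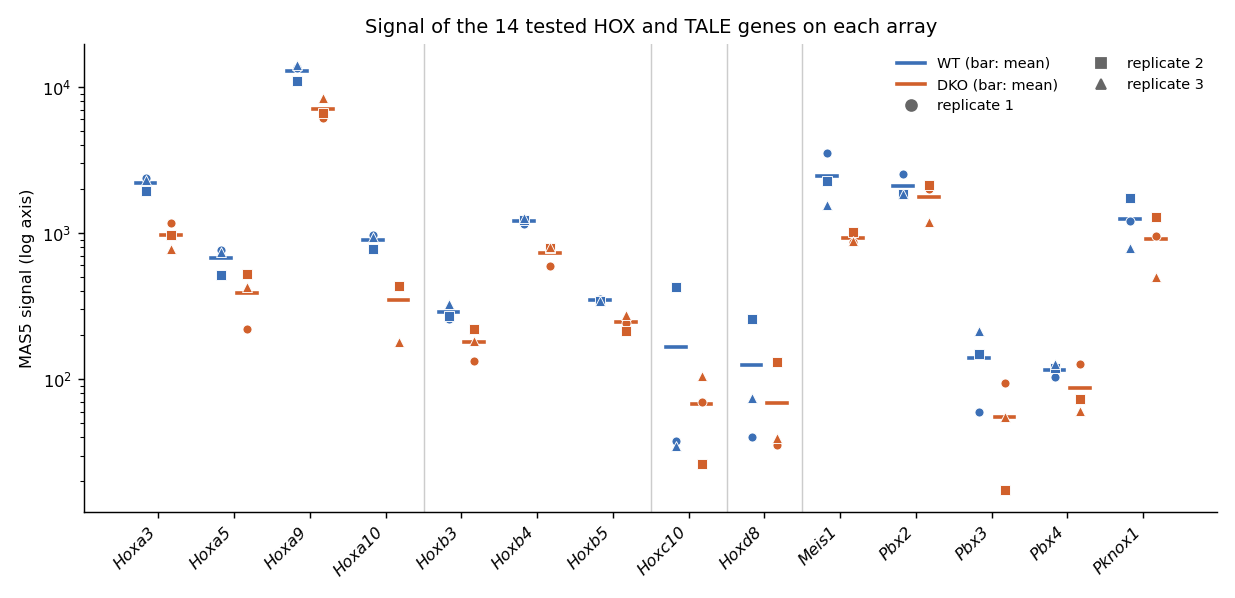
MAS5 signal (log axis) of the 14 tested HOX and TALE genes on the 3 WT and 3 DKO arrays; points are arrays, with a shape per replicate, and bars are group means. The groups do not overlap for Hoxa3, Hoxa9, Hoxa10, Hoxb3, Hoxb4, Hoxb5 and Meis1, and heights of different genes are not comparable because probe sets differ in brightness.

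The A cluster held both HOX genes that fell. Hoxa3, an anterior gene known for patterning of the pharyngeal organs, had signals of 2369.0, 1953.4 and 2315.0 in WT and 1174.3, 971.8 and 783.3 in DKO. The groups did not overlap, and the DKO mean was 44.1% of the WT mean. Hoxa3 fell by 1.18 on the log2 scale (-1.18 ± 0.23 SE, limma adjusted p = 0.0270). Its other tested probe sets were lower as well. That marked _s_at had 478.7, 338.5 and 395.4 in WT and 204.7, 167.6 and 218.1 in DKO (-0.98 ± 0.34, limma adjusted p = 0.207), again without overlap. The dimmest tested one varied most, with 343.9, 204.3 and 414.7 in WT and 12.5, 423.0 and 93.8 in DKO (-1.55 ± 0.77, limma adjusted p = 0.393). DKO replicate 2 was the highest of all 6 arrays there.

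Hoxa9, a posterior gene that drives self-renewal of blood progenitors, was measured by a bright probe set with 13422.9, 11003.6 and 14075.9 in WT and 6153.0, 6632.7 and 8439.9 in DKO. All WT arrays lay above all DKO arrays, and the DKO mean was 55.1% of the WT mean. The difference was -0.86 ± 0.16 (limma adjusted p = 0.0259). A second Hoxa9 probe set, far dimmer, had 452.9, 268.3 and 338.2 in WT and 297.8, 240.5 and 255.2 in DKO (-0.37 ± 0.34, limma adjusted p = 0.677). There WT replicate 2 lay among the DKO arrays, so the fall of Hoxa9 rests on the bright probe set.

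Hoxa10, the posterior neighbour of Hoxa9 and also a regulator of myeloid progenitors, had 975.7, 782.4 and 933.2 in WT and 425.8, 433.0 and 179.7 in DKO. The groups did not overlap, and DKO replicate 3 was the lowest. The difference of -1.43 ± 0.36 was the largest in size of the 14 genes but did not pass (limma adjusted p = 0.0812). Its other probe set was too dim to be tested, with signals of 2.5 to 13.6 over the 6 arrays.

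Hoxa5, a central gene, was represented by a probe set marked _x_at, the manufacturer's mark for probes that may also match unrelated transcripts. It had 768.2, 513.9 and 738.7 in WT and 222.1, 521.7 and 427.8 in DKO, with DKO replicate 2 above WT replicate 2 (-0.82 ± 0.36, limma adjusted p = 0.324). The second probe set, without that mark, had 494.1, 582.7 and 288.4 in WT and 81.5, 228.1 and 115.8 in DKO. There the groups did not overlap and the difference was larger, -1.63 ± 0.44 (limma adjusted p = 0.106). Neither passed.

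In the RefSeq gene table the model of Hoxa3 spans Hoxa4, Hoxa5 and Hoxa6, and that of Hoxb3 spans Hoxb4. The parts of these models that the probes match are not given in the sources used here, so signals of overlapping models may not be separate. Hoxa2, Hoxa4, Hoxa7, Hoxa11 and Hoxa13, which lie between or beyond the 4 tested HOXA genes, were too dim to be tested. Of these, Hoxa11 had 38.6, 48.2 and 80.3 in WT and 15.9, 2.5 and 14.8 in DKO, without overlap (-1.40, limma adjusted p = 0.250 in the unfiltered fit). Hoxa13 was higher in DKO by 0.73 and Hoxa7 by 0.35 (limma adjusted p = 0.636 and 0.887 in the unfiltered fit). Over the 8 HOXA probe sets left out, signals lay between 2.5 and 150.5. Of the 40 member probe sets left out in all clusters and families, limma in the unfiltered fit called 0, against 0.462% of 45037, and 3 had an unadjusted p under 0.05, against 11.0%.

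**Figure D2:**
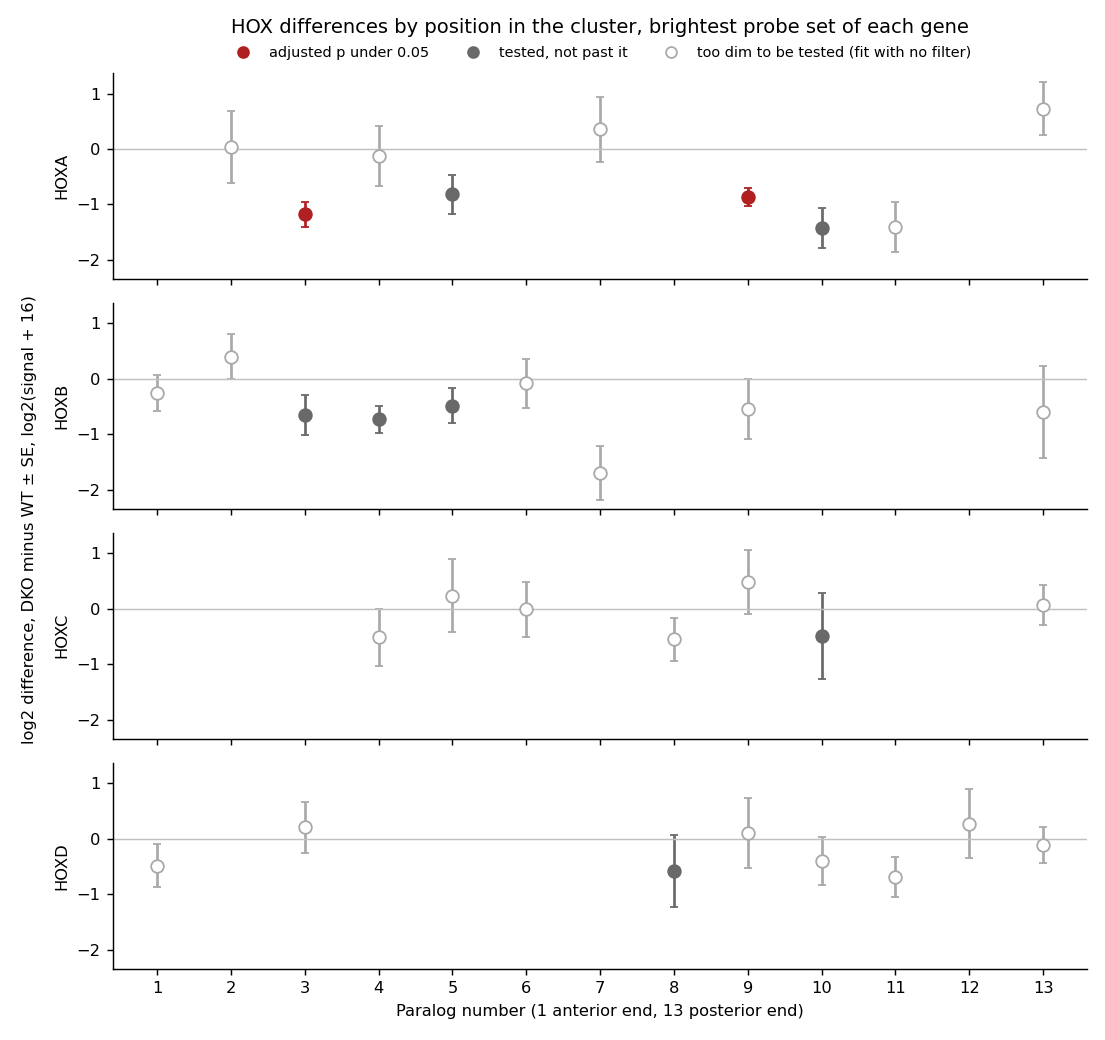
Log2 difference (DKO minus WT ± SE, log2(signal + 16)) of the brightest probe set of each HOX gene against its paralog number, a panel per cluster. Red points passed an adjusted p of 0.05 (Hoxa3 and Hoxa9), dark points were tested and did not, and open points were too dim and come from the fit with no filter.

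The 3 tested HOXB genes were lower in DKO as well, and 0 of 3 passed. In limma 1 of them had an unadjusted p under 0.05, against 16.3% of all tested genes. Hoxb4, a central gene that expands blood stem cells when overexpressed, had 1144.4, 1224.0 and 1273.1 in WT and 591.9, 789.5 and 808.9 in DKO. The groups did not overlap, and the DKO mean was 60.2% of the WT mean (-0.73 ± 0.24, limma adjusted p = 0.181). A dimmer Hoxb4 probe set overlapped, with 236.8, 238.6 and 162.1 against 178.5, 205.9 and 88.9 (-0.45 ± 0.42, limma adjusted p = 0.687).

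Hoxb3, an anterior gene next to Hoxb4, had 257.5, 271.7 and 328.9 in WT and 134.1, 219.3 and 183.0 in DKO (-0.65 ± 0.36, limma adjusted p = 0.448). Its second probe set was lower by a like amount, 210.2, 101.6 and 97.3 against 92.7, 58.3 and 69.4 (-0.71 ± 0.45, limma adjusted p = 0.521). Neither probe set overlapped between groups. Hoxb5, a central gene that marks long-term stem cells in adult mouse marrow, had nearly equal WT signals of 355.0, 343.2 and 340.7. Its DKO signals were 242.3, 214.9 and 276.7, without overlap (-0.48 ± 0.32, limma adjusted p = 0.544). limma draws each variance toward that of probe sets of like brightness, which makes the SE of Hoxb5 larger than its own spread would give.

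The other 6 HOXB genes, Hoxb1, Hoxb2, Hoxb6, Hoxb7, Hoxb9 and Hoxb13, were too dim to be tested, with signals from 2.2 to 188.6. Hoxb7 had the lowest p of the left-out members, 102.0, 89.6 and 38.6 in WT against 9.1, 19.5 and 6.6 in DKO. It did not pass in the unfiltered fit (-1.69, limma adjusted p = 0.201). Its groups did not overlap, and on this scale the difference depends on the offset of 16.

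The C and D clusters were near the floor of the arrays. Of 7 HOXC genes 1 was tested, the posterior gene Hoxc10, through a single WT array: it had 37.9, 425.7 and 35.0 in WT and 69.9, 26.4 and 105.8 in DKO (-0.48 ± 0.77, limma adjusted p = 0.838). With WT replicate 2 left out Hoxc10 was too dim to be tested. Of 8 HOXD genes 1 was tested, the central gene Hoxd8, with 40.3, 259.8 and 74.4 in WT and 35.5, 131.1 and 39.3 in DKO (-0.58 ± 0.64, limma adjusted p = 0.742). Without WT replicate 2 its difference was 0.069, so the direction of both genes rests on that array. Left out were Hoxc4, Hoxc5, Hoxc6, Hoxc8, Hoxc9 and Hoxc13 with signals of 0.5 to 104.3, and Hoxd1, Hoxd3, Hoxd9, Hoxd10, Hoxd11, Hoxd12 and Hoxd13 with 1.0 to 100.1.

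By position, the tested HOX genes had a median of -0.92 for 2 anterior genes (paralogs 1 to 3), -0.66 for 4 central genes (4 to 8) and -0.86 for 3 posterior genes (9 to 13). Anterior and posterior genes each gave 1 fall, Hoxa3 and Hoxa9, and the central genes 0, against 0.633% of all tested genes. With so few tested genes per position, these counts do not set the positions apart. The 9 tested HOX genes had differences from -1.43 to -0.48, and contrasts between clusters or between positions were not tested.

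Among the TALE genes, Meis1, the MEIS member that blood stem cells depend on, was the 1 that fell. Its brightest probe set had 3543.3, 2287.4 and 1567.2 in WT and 865.7, 1015.2 and 887.7 in DKO. The WT arrays spread widely and the DKO arrays hardly at all, without overlap, and the DKO mean was 37.4% of the WT mean (-1.33 ± 0.28, limma adjusted p = 0.0456). The probe set marked _a_at had 748.3, 673.9 and 740.6 against 434.8, 534.5 and 304.3, also without overlap (-0.78 ± 0.30, limma adjusted p = 0.253). The third had 1577.9, 616.2 and 1263.9 against 469.5, 1003.0 and 871.5 (-0.52 ± 0.38, limma adjusted p = 0.582), where WT replicate 2 lay among the DKO arrays. Meis2 and Meis3 were too dim to be tested, with signals from 0.5 to 85.2.

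The PBX genes encode the direct partners of HOX proteins. None of the 3 tested PBX genes passed, and 5 of their 7 tested probe sets were lower in DKO. Among these were both Pbx3 probe sets, which passed the filter only through their WT signals. Pbx2 had 2548.8, 1849.5 and 1864.5 in WT and 1998.5, 2133.9 and 1184.2 in DKO, with overlap (-0.26 ± 0.26, limma adjusted p = 0.700). Another Pbx2 probe set was at -0.44 ± 0.37 and another at 0.40 ± 0.31 (limma adjusted p = 0.639 and 0.602). Pbx4, a PBX gene best known from the testis, had 102.7, 118.6 and 126.1 in WT and 126.9, 72.9 and 60.5 in DKO (-0.41 ± 0.43, limma adjusted p = 0.730). Its second probe set went the other way, at 69.8, 33.6 and 66.0 against 73.3, 104.2 and 97.0, with all DKO arrays above all WT arrays (0.60 ± 0.45, limma adjusted p = 0.593).

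Pbx3, a PBX partner of Hoxa9 and Meis1 in leukaemia, was lower in both tested probe sets. The brighter had 59.2, 148.1 and 214.1 in WT and 93.7, 17.3 and 54.7 in DKO (-1.15 ± 0.58, limma adjusted p = 0.394). WT replicate 1 lay among the DKO arrays. A second Pbx3 probe set was at -0.83 ± 0.62 (limma adjusted p = 0.585), with a single low DKO array at 4.0. Pknox1, a MEIS-like partner of PBX proteins that also acts in blood stem cells, had 1203.4, 1728.1 and 786.2 in WT and 959.5, 1287.9 and 500.4 in DKO (-0.46 ± 0.37, limma adjusted p = 0.623). Its other probe sets were at -0.34 ± 0.33 and 0.071 ± 0.42 (limma adjusted p = 0.706 and 0.966). Pknox2 was too dim to be tested.

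**Figure D3:**
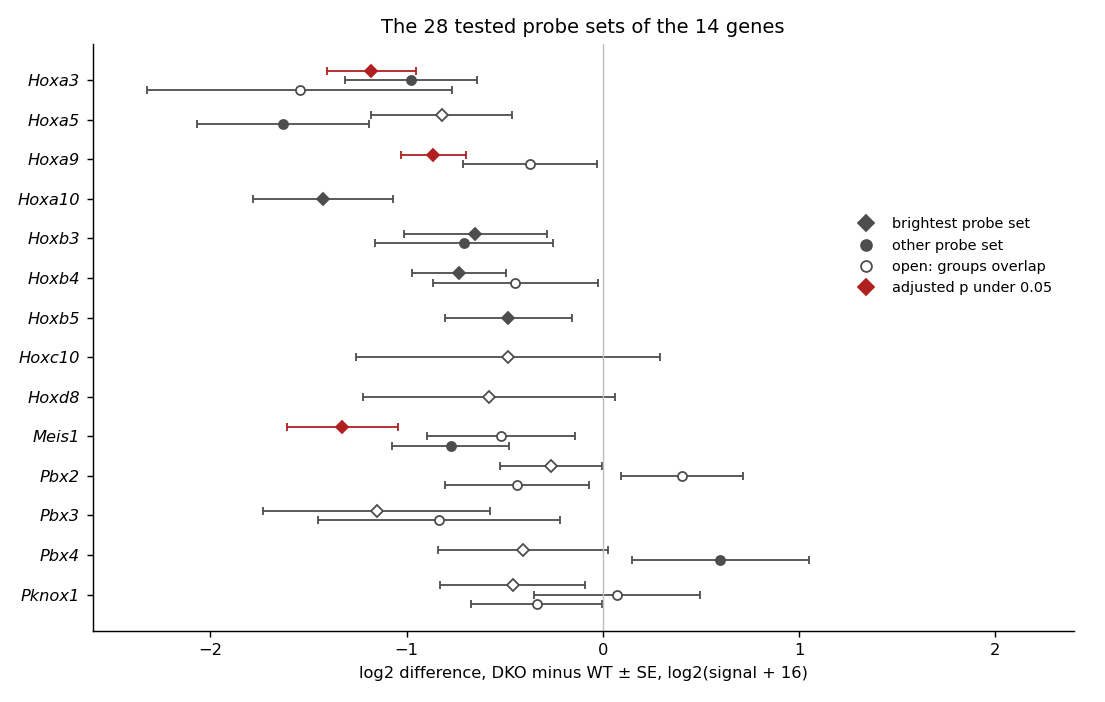
Log2 difference (DKO minus WT ± SE) of each of the 28 tested probe sets, by gene, with diamonds for the brightest and open symbols where the groups overlap. All 15 HOX and all 3 Meis1 probe sets lie below 0, and 3 of the 10 PBX and PKNOX probe sets lie above it.

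Across probe sets, 25 of 28 were lower in DKO: 15 of 15 for HOX genes, 3 of 3 for Meis1, 5 of 7 for PBX and 2 of 3 for Pknox1. Of all tested genes 50.8% were lower. The share of all tested probe sets is not given here, and their median difference was -0.051. Both Pbx3 probe sets in these counts passed the filter only through their WT signals, so they are no support for a lower level. Of the 28, 11 had all WT arrays above all DKO arrays, against 11.1% of all tested probe sets. In 10 genes with several tested probe sets, the brightest was the 1 that passed for Hoxa3, Hoxa9 and Meis1, and 0 of the 10 genes had more than 1 probe set past the threshold. The share of all genes with more than 1 such probe set is not given here. Probe sets of a gene share their RNA and are not replicates.

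The 3 calls depended on single arrays. With an array left out, Hoxa9 passed in 2 of 6 fits, Hoxa3 in 1 and Meis1 in 1, with limma adjusted p up to 0.124, 0.124 and 0.166. The number of member genes past the threshold was 0 when WT replicate 1, DKO replicate 1 or DKO replicate 2 was left out, and 1 when WT replicate 3 (Meis1) or DKO replicate 3 (Hoxa9) was. Without WT replicate 2 it was 2, Hoxa3 (-1.27, limma adjusted p = 0.0294) and Hoxa9 (-0.97, limma adjusted p = 0.0212), with Meis1 at -1.34 (limma adjusted p = 0.0686). In that fit 0.64% of all tested genes fell and 1.7% rose. The shares over all genes in the other fits with an array left out are not given here. The losses of calls are therefore not set against those of other genes. The differences of all 3 kept their sign in all 6 fits, from -1.32 to -1.03 for Hoxa3, -0.997 to -0.77 for Hoxa9 and -1.61 to -1.03 for Meis1. The call of Hoxa9 was lost with median centring (-0.76, limma adjusted p = 0.155) and with no filter (limma adjusted p = 0.0662), that of Meis1 was lost under both of these and with a pseudocount of 1 or quantile normalization (limma adjusted p from 0.0526 to 0.0838), and all 3 calls were lost without an intensity trend (limma adjusted p from 0.135 to 0.227).

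Levels by array were compared with markers of other blood and marrow cells. The sort for lack of lineage markers would remove mature cells of the lineages it stained for, which are not listed in the sources used here. A gene's log2 values were centred on their mean, and averaged over the genes of a set. For the 4 HOXA genes this level was 0.66, 0.30 and 0.64 in WT and -0.59, -0.33 and -0.69 in DKO. WT replicate 2 was thus the lowest WT array and DKO replicate 2 the highest DKO array. The HOXB level was 0.25, 0.29 and 0.39 in WT and -0.52, -0.23 and -0.18 in DKO, and the TALE level 0.34, 0.48 and 0.27 against -0.039, -0.37 and -0.67. The TALE level is the mean of 5 genes and includes Pbx3, which passed the filter only through its WT signals. Of these genes Meis1 alone had groups without overlap. A TALE level without Pbx3 is not given here, so its separation of the groups is no support for a lower level.

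Stem and early progenitor markers moved with them: their level was 0.55, 0.50 and 0.54 in WT and -0.52, -0.34 and -0.71 in DKO. Over all tested genes 0.633% fell, 1.08% rose and 50.8% were lower, the background for the counts of lists here. An unadjusted p under 0.05 in limma was seen for 16.3% of them. Of 13 tested stem cell markers 12 were lower and 5 fell, and their summed signal was 27550.7 to 32529.2 in WT and 12835.7 to 14276.1 in DKO. Mast cell, basophil and eosinophil markers moved the other way, 15 of 15 higher with 8 rises. T and NK cell markers were higher in 12 of 14, with 7 rises, and monocyte, macrophage and dendritic cell markers in 7 of 10, with 4 rises. The summed signal of mast cell, basophil and eosinophil markers was 3376.5 to 16202.3 in WT and 34840.8 to 42541.7 in DKO. B lineage markers were lower in 9 of 9 with 1 fall, erythroid markers in 5 of 9 with 1 fall, and neutrophil markers in 7 of 10, of which limma called 0 (0 at an unadjusted p under 0.05 too). Markers of marrow stroma, bone and endothelium were higher in 9 of 13, of which limma called 0 (1 at an unadjusted p under 0.05). Some markers in these counts passed the filter through a single group. Fcer1a, Ccr3, Tpsb2, Cd3e, Cd3d, Gzmb, Ncr1 and Prrx1 did so through their DKO signals, and Ms4a1 through its WT signals. The directions and calls of these genes are therefore no support for a difference. Without WT replicate 2, a setting chosen after seeing the data, 0.64% of tested genes fell, 1.7% rose and 52.2% were lower. Stem cell markers then again gave 12 of 13 lower with 5 falls, mast cell, basophil and eosinophil markers 11 rises of 15, T and NK cell markers 7 of 14 and monocyte, macrophage and dendritic cell markers 4 of 10. The counts of B lineage markers became 5 of 7 lower with 1 fall, of erythroid markers 3 of 9 lower with 1 fall and 1 rise, and of neutrophil markers 1 of 10 lower, of which limma again called 0 (2 at an unadjusted p under 0.05). The majority direction of neutrophil and erythroid markers thus turned with that array. No marker was listed at 0. The part of these cell types in the HOX and MEIS differences was not tested.

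**Figure D4:**
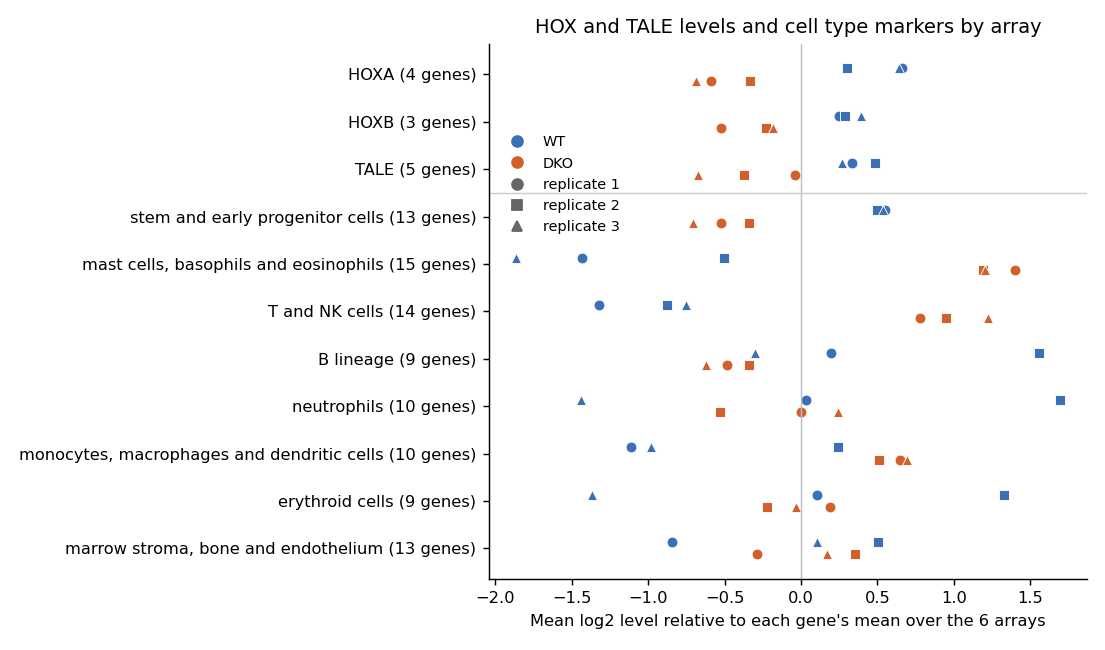
Mean log2 level of the tested HOXA, HOXB and TALE genes and of 8 lists of cell type markers on each array, after centring each gene at 0. HOXA, HOXB, TALE and stem cell levels are higher in every WT array than in every DKO array, mast cell, basophil and eosinophil and T and NK cell levels are lower, and WT replicate 2 is highest for B lineage, neutrophils and erythroid cells.

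The chromatin regulators that keep HOX clusters open or closed mostly did not pass. Of 28 tested genes of that list 17 were lower, 1 fell and 0 rose, against 50.8%, 0.633% and 1.08% of all tested genes. Their median difference was -0.12, and limma gave 4 an unadjusted p under 0.05, against 16.3% of all tested genes. The 1 fall was Mllt3, a subunit of the super elongation complex and a stem cell maintenance factor, at 4112.6, 3811.1 and 4317.1 in WT and 1733.8, 1752.3 and 1510.3 in DKO (-1.29 ± 0.18, limma adjusted p = 0.00458). Mllt3 is also among the stem cell markers. Kmt2a, the methyltransferase that maintains HOX transcription, was at -0.71 ± 0.33, and its cofactor Men1 at -0.70 ± 0.39 (limma adjusted p = 0.355 and 0.441). Polycomb genes differed both ways, with Suz12 at 0.39 ± 0.15 and Ezh1 at -0.83 ± 0.35 (limma adjusted p = 0.265 and 0.313). Dot1l, which methylates H3K79 on HOX genes, was at 0.86 ± 0.36 (limma adjusted p = 0.310).

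In the list of known targets and partners of HOXA9 and MEIS1, 18 of 29 tested genes were lower, 7 fell and 2 rose, with a median of -0.29. All tested genes gave 50.8% lower, 0.633% falls and 1.08% rises. By smallest p these were led by the transcription factor Mecom (-1.66 ± 0.22), Id2, an inhibitor of basic helix-loop-helix factors (2.54 ± 0.37), the coactivator Mn1 (-2.45 ± 0.37) and the transcription factor Hlf (-1.33 ± 0.21), with limma adjusted p from 0.00390 to 0.00936. Some of these 29 genes are stem cell markers too. Myb, a widely cited target of HOXA9, was at -0.025 (limma adjusted p = 0.965), Myc at 0.56 (limma adjusted p = 0.250) and Bcl2 at 0.59 (limma adjusted p = 0.136). Myb, Myc and Bcl2 were chosen after their values were seen. In limma 19 of the 29 had an unadjusted p under 0.05, against 16.3% of all tested genes. The genes of this list, which mixes targets with partners, thus did not all share a direction, though most of those past the threshold fell.

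Of 16 tested genes that flank the HOX clusters, with the antisense RNA Hoxb5os counted among them, 7 were lower, against 50.8% of all tested genes. For these 16 genes limma called 0 falls and 0 rises, against 0.633% and 1.08%. It gave 4 of them an unadjusted p under 0.05, against 16.3% of all tested genes. Their median difference was 0.049, and by smallest p these were Lnpk beside HOXD (0.98 ± 0.29, limma adjusted p = 0.138) and Skap1 beside HOXB (1.47 ± 0.52, limma adjusted p = 0.224). Skap2, next to HOXA, was at 0.092 ± 0.15 (limma adjusted p = 0.837). Among 9 other TALE homeobox genes 3 were tested, and 0 passed in limma, with 2 at an unadjusted p under 0.05: the repressors Tgif2 (-0.97 ± 0.27, limma adjusted p = 0.111) and Tgif1 (-0.91 ± 0.38, limma adjusted p = 0.307), and Irx2 at 0.33. Without WT replicate 2 Tgif2 passed (-1.19, limma adjusted p = 0.0437).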

How the data were processed

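Per the labels' protocols, RNA of sorted marrow cells was labelled with biotin for Affymetrix arrays. Values in the deposited table are linear intensities, the MAS5 signals of the submitters' processing notes, which name no version. A genome build is not given there. Detection calls were not used here. The 6 columns were matched by sample, with 0 columns of other samples. After removal of 64 control probe sets, 45037 remained, of which 34945 had 1 gene symbol in the platform annotation, 932 several and 9160 none. All 68 member probe sets matched RefSeq by gene identifier. On log2(signal + 16), which understates changes of dim genes, the dimmest 40% were left out (a signal of about 53.2), and 27022 probe sets were fitted in limma 3.58.1 under R 4.3.3, with an intensity trend and no block, two-sided, with Benjamini-Hochberg adjustment and a threshold of 0.05. Members left out were fitted with no filter. On simulated arrays with 27022 probe sets this fit recovered 12% of the 50 probe sets changed by a log2 of 1 and 50% of the 50 changed by 2. Replicates are separate pools of mice, and the labels do not state that shared replicate numbers pair the arrays. Correlations of deviations from group means between arrays of the same number were 0.14, -0.031 and 0.053. With 3 arrays per group these cannot decide whether arrays were paired. Members, marker lists and pathway lists were chosen with earlier results of these data known. Every tested member is named; of each pathway list up to 4 members past the threshold, or else the 2 of smallest p. Kmt2a, Men1, Suz12, Ezh1, Dot1l, Myb, Myc, Bcl2, Skap2 and Irx2 were chosen after their values were seen. The number of arrays limits the precision. Plots used matplotlib 3.10.9 (Python 3.11.15).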

Additional observations from a re-analysis of the deposited data

How the results depend on the processing

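The count of 3 member genes past the threshold was 1 with no filter on low values, 1 with median centring, 0 without an intensity trend and 0 when all probe sets of a gene were averaged (Hoxa3 -1.16, Hoxa9 -0.62 and Meis1 -0.87, limma adjusted p from 0.135 to 0.175); the cause of these losses was not tested. With an array left out it was 0 to 2. It was 2 to 4 with pseudocounts of 1 and 64, the lowest 60% left out, quantile normalization, array quality weights and an adjusted p of 0.10, where Hoxa10 (-1.43) was the added gene. With the replicate block it was 2, since Meis1 did not pass (limma adjusted p = 0.0557). The labels state no pairing of arrays with the same number. With an array left out the median ranged from -1.13 to -0.97 for HOXA, -0.80 to -0.48 for HOXB and -0.75 to -0.22 for TALE genes. Median centring raised the median of all tested probe sets by 0.11, from -0.051 to 0.056, and left all 14 differences below 0. The sign turned for Hoxd8 without WT replicate 2 (0.069; range with an array left out -1.08 to 0.069), for Pbx2 without DKO replicate 3 (0.0008; range -0.42 to 0.0008) and for Pbx4 when its probe sets were averaged (0.096). Signals near the floor limit what can be said of HOXC, HOXD and 27 dim genes, of whose 40 left-out probe sets 0 passed in limma with no filter and 3 had an unadjusted p under 0.05.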

Other observations

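Probe sets of RNAs antisense to HOX clusters and of the PBX-binding protein gene Pbxip1 lie outside the families above. They were picked out here after their values were seen. Hoxb5os and Hoxa11os were also in the list of genes flanking the HOX clusters, and Hoxb5os was already counted among its 16 tested genes. Hoxb5os had 46.2, 46.7 and 201.2 in WT and 73.2, 129.0 and 39.9 in DKO (-0.076 ± 0.59 SE, limma adjusted p = 0.973). Both Hoxa11os probe sets lay between 0.4 and 19.5 over the 6 arrays and were too dim to be tested, as were both of Hoxd3os1, the brighter of which had 15.5, 2.9 and 19.6 in WT and 9.9, 130.5 and 46.8 in DKO. The brighter probe set of Pbxip1, whose protein binds PBX proteins and holds them from DNA, had 618.9, 758.5 and 923.5 in WT and 632.0, 662.9 and 614.9 in DKO (-0.25 ± 0.26, limma adjusted p = 0.734), with overlap between the groups.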
